A study of Homo sapiens with 6 samples.

Results

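The genes described here are NFE2L2, KEAP1, SLC7A11, GCLC, GCLM, TXNRD1, SRXN1, NQO1, AKR1C1 and HMOX1, chosen by name as the transcription factor NRF2, its inhibitor and 8 of its best known antioxidant targets. All 10 were among the 31762 genes of the deposited table, each with 1 row. The cells were H460, a human line established from a large cell carcinoma of the lung, labelled as wild type. RNA sequencing was performed on 3 libraries of cells exposed for 24 h to 20 µM fluoxetine, a serotonin reuptake inhibitor used as an antidepressant, and on 3 control libraries, to compare the transcriptomes of treated and control cells. The labels give the controls no vehicle, and they do not say whether the libraries of a group came from separate cultures, so the p-values measure the spread between these libraries, which may be technical.

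NRF2, the product of NFE2L2, binds antioxidant response elements together with a small MAF protein. In unstressed cells KEAP1, an adaptor of a CUL3 ubiquitin ligase, sends NRF2 to the proteasome, and electrophiles or oxidants that modify KEAP1 let NRF2 accumulate. Most of this control acts on the protein, so the NFE2L2 transcript need not move when the targets do. H460 is known as a line in which KEAP1 is altered, so that NRF2 targets are abundant without any treatment. The targets supply cystine and glutathione (SLC7A11, GCLC, GCLM), reduce thioredoxin and peroxiredoxins (TXNRD1, SRXN1), and detoxify quinones, carbonyls and heme (NQO1, AKR1C1, HMOX1).

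Antioxidant response elements were looked for as their core letters, TGACNNNGC, on both strands of the RefSeq promoter windows of build GRCh38.p14, which run from 250 bases before a gene's start to 50 after it. A window was given for 8 of the 10 genes, and 3 of these 8 (GCLM, KEAP1 and TXNRD1) held the letters, as did 16.1% of the 27305 genes with a window. HMOX1 and SLC7A11 had no window in the RefSeq table used here. With an A or a G required before the letters, the same count of 3 of 8 stood beside 8.41% of all genes. The matches are shown because they mark the genes of the set that carry the letters of the element near a start. Each is written on the gene's strand with 10 bases on either side and the match in capitals, and a match that lies on the opposite strand reads as GCNNNGTCA.
GCLM, 34 bases before the start, chr1:93909446-93909474, minus strand: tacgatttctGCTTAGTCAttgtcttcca
KEAP1, 31 bases before the start, chr19:10502784-10502812, minus strand: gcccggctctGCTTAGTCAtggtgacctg
KEAP1, 54 bases before the start, chr19:10502807-10502835, minus strand: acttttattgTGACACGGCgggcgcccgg
TXNRD1, 102 bases before a start inside the gene, chr12:104286920-104286948, plus strand: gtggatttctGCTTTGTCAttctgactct
TXNRD1, 99 bases before its first start, chr12:104215670-104215698, plus strand: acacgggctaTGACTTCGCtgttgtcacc
TXNRD1, 8 bases before its first start, chr12:104215761-104215789, plus strand: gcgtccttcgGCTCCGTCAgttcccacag
GCLM and KEAP1 shared the same 9 letters, TGACTAAGC on the strand of the motif, and TXNRD1 had TGACAAAGC at its inner start. A match is a description of these windows, and binding of NRF2 was not measured. Sequence farther from a start was not searched, so a gene without a match may still carry the element. No gene of the set with a window passed the test below, with a match or without. HMOX1, the one gene that did pass, had no window and was not searched, so matches and calls cannot be compared.

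The total number of reads counted on genes was between 19343565 and 27823667 in control cells and between 16157507 and 17113538 after fluoxetine treatment. At that depth 3 counts, the limit that a count of 0 allows, were worth 0.108 to 0.186 CPM of the raw library total, which covers counting error only. All other CPM given here are scaled to the library size after TMM normalization. Control replicate 3 stood apart from the other controls. A chi-square statistic of counts, divided by its degrees of freedom, was 25.2 and 14.0 between this library and control replicates 1 and 2. It was 6.16 between those 2 libraries, so results that rest on control replicate 3 are given with and without it. Fluoxetine replicate 2 differed from fluoxetine replicates 1 and 3 by 7.27 and 11.7, against 3.69 between those 2. The statistic can rise with depth, and control replicate 3 had the most counts, so it is not compared between groups. The keratin genes KRT8, KRT18 and KRT19 were abundant, while the epithelial markers EPCAM and CDH1 did not exceed 11 and 1 counts in a library. The 5 epithelial markers summed to between 3057 and 4027 CPM in controls and between 2689 and 3264 CPM after treatment, and KRT18 was lower (log2 fold change -0.72, adjusted p = 0.00162). Leukocyte, endothelial and lung airway markers summed to at most 2.39 CPM in any library for each list. The 5 fibroblast markers summed to between 25.2 and 28.4 CPM, and 1 of the 3 that were tested rose (LUM) and 1 fell (COL3A1). All libraries came from the H460 line, and in bulk samples a change in every cell cannot be told apart from a change in some of the cells.

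Of the 10 genes, 1 rose after fluoxetine treatment, none fell, 8 did not pass the test and 1, SRXN1, had too few counts to be tested. The gene that rose was HMOX1. A gene was called at an adjusted p under 0.05 (edgeR's quasi-likelihood test, Benjamini-Hochberg over 15646 tested genes), by which 7.76% of all tested genes rose and 5.32% fell, so 1 of 9 is near the background. None of the 9 changed at least 2-fold, which 1.25% of tested genes did upward and 0.147% downward. All fluoxetine libraries lay above all controls for 3 of the 9 (NFE2L2, TXNRD1 and HMOX1) and below them for none, against 17.5% and 14.4% of all tested genes. The median log2 fold change of the 9 was 0.06, against 0.03 over all tested genes. At an unadjusted p under 0.05, 3 of the 9 passed (SLC7A11, TXNRD1 and HMOX1, all upward). Of the 15646 tested genes, 4485 passed in this way, counted over both directions. None of the 9 fell with DESeq2 or limma-voom either.

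**Figure D1:**
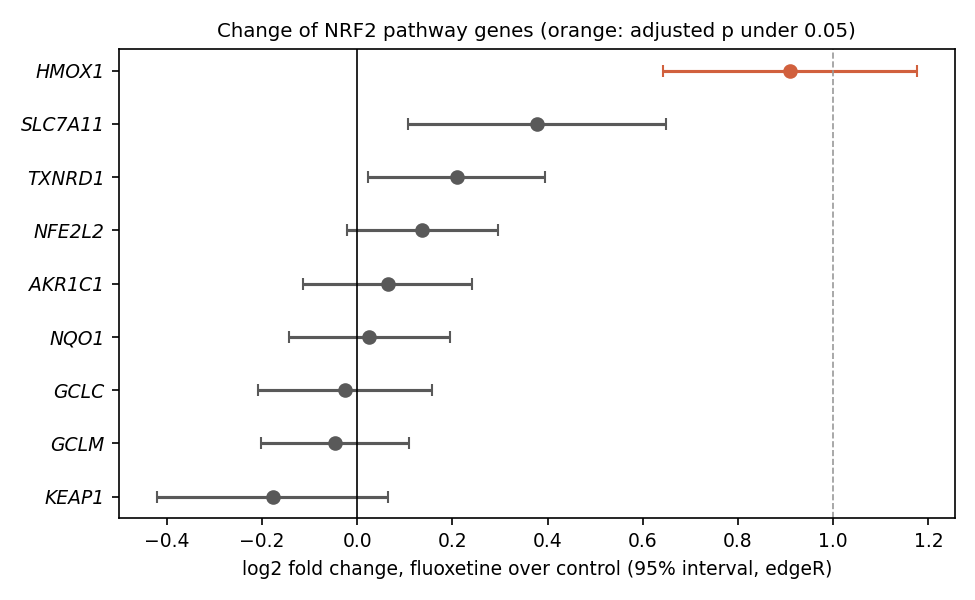
Log2 fold change of fluoxetine over control for the 9 tested genes, with 95% intervals from edgeR; the dashed line marks a 2-fold rise. HMOX1, at 0.91, is the one gene called, and the intervals of SLC7A11 (0.38) and TXNRD1 (0.21) also lie above 0 although their adjusted p-values were 0.0678 and 0.130.

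Most of the 9 genes were abundant. To compare genes, CPM were divided by the exon length in kilobases (union of exons in GENCODE 29). This union covers the exons of all annotated transcripts of a gene, so it can be longer than the transcript that the cells made. The order of genes, the percentiles and the size of ratios per kilobase depend on these lengths, while fold changes between groups do not. In control cells NQO1, the 2-electron quinone reductase, stood first at 392 ± 17.3 CPM per kilobase (SD, n = 3), and TXNRD1, cytosolic thioredoxin reductase, second at 377 ± 36.5. Their libraries overlapped, so their order is not set, and both lay above 99.6% of tested genes. AKR1C1, an aldo-keto reductase of steroids and carbonyls, followed at 92.9 ± 6.27. SLC7A11 (50.6 ± 9.04) overlapped GCLM (41.0 ± 2.53). NFE2L2 (33.1 ± 0.805), KEAP1 (26.0 ± 3.31), HMOX1 (18.5 ± 1.98) and GCLC (8.71 ± 0.642) came last, without overlap between neighbours. GCLC, the lowest of the 9, was above 66.4% of tested genes.

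After fluoxetine treatment the order was TXNRD1 (436 ± 17.9 CPM per kilobase; SD, n = 3), NQO1 (399.5 ± 30.0), AKR1C1 (97.1 ± 7.01), SLC7A11 (65.7 ± 6.60), GCLM (39.7 ± 0.520), NFE2L2 (36.4 ± 2.28), HMOX1 (34.8 ± 5.25), KEAP1 (23.0 ± 2.45) and GCLC (8.57 ± 0.385). HMOX1 thus passed KEAP1 and reached the range of NFE2L2, with which its libraries overlapped. TXNRD1 and NQO1 overlapped again. Together the 10 genes took 0.541%, 0.571% and 0.597% of the counts of the 3 control libraries and 0.640%, 0.640% and 0.647% of those of the 3 treated ones. TXNRD1, NQO1 and AKR1C1 made up 78.5% to 81.0% of these counts, so the level of the sum is mostly theirs. Its difference between groups is not shared evenly among them. Mean CPM went from 2531 to 2926 for TXNRD1, from 1277 to 1300 for NQO1 and from 814 to 851 for AKR1C1. For SLC7A11 it went from 488 to 634, and for HMOX1 from 44.6 to 83.7.

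**Figure D2:**
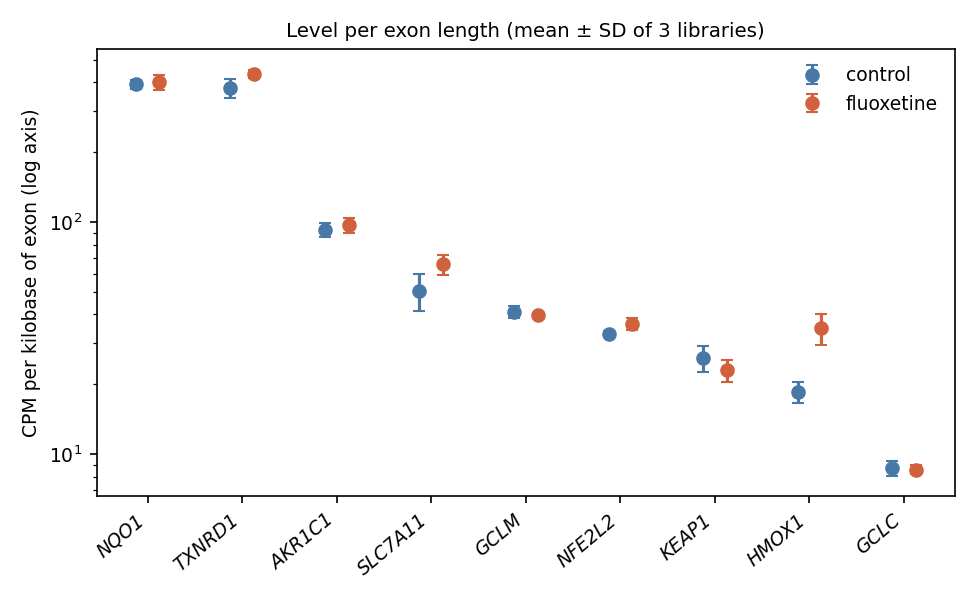
Level of the 9 genes per kilobase of exon on a log axis (mean ± SD of 3 libraries), in the order of the control cells. NQO1 and TXNRD1 sit near 400 in both groups, and HMOX1 is the gene whose groups are farthest apart, at 18.5 and 34.8.

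The regulators were measured first. NFE2L2 (ENSG00000116044, chromosome 2, 177227595 to 177392697, minus strand, GRCh38) had 200.3, 192 and 201 CPM in the 3 control libraries and 202, 227 and 224 CPM in the 3 fluoxetine libraries. The groups did not overlap, but fluoxetine replicate 1 lay within 1 CPM of the highest control. The log2 fold change was 0.14 (SE 0.07, 95% interval -0.02 to 0.30, adjusted p = 0.239), and no alternative setting or left-out library brought it past the threshold. Exons of AC019080.1 overlap 17.6% of its exon length on the same strand, and that gene had 16 to 30 counts per library. NFE2L2 had 3326 to 5579. On the opposite strand AGPS, with 2089 to 3831 counts, overlaps 0.9% of that length. How reads on shared exons were counted is not given. The number of NFE2L2 reads lost there cannot be told, and its level per kilobase may be too low.

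KEAP1 (ENSG00000079999, chromosome 19, 10486120 to 10503741, minus strand) had 107, 103 and 83.6 CPM in control cells and 80.6, 97.0 and 81.5 CPM after treatment. Control replicate 3 was as low as the treated cells, so the groups overlapped. The log2 fold change was -0.18 (SE 0.11, 95% interval -0.42 to 0.06, adjusted p = 0.324). Without control replicate 3 it was -0.31 with an adjusted p of 0.0278, while in the other 5 fits that left out a library the test was not passed. The ratio of NFE2L2 to KEAP1 per kilobase was 1.29 ± 0.193 in control cells and 1.59 ± 0.130 after treatment (SD, n = 3), a log2 difference of 0.31 (exact permutation test, two-sided, p = 0.2; 3 libraries against 3 cannot give less than 0.1).

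**Figure D3:**
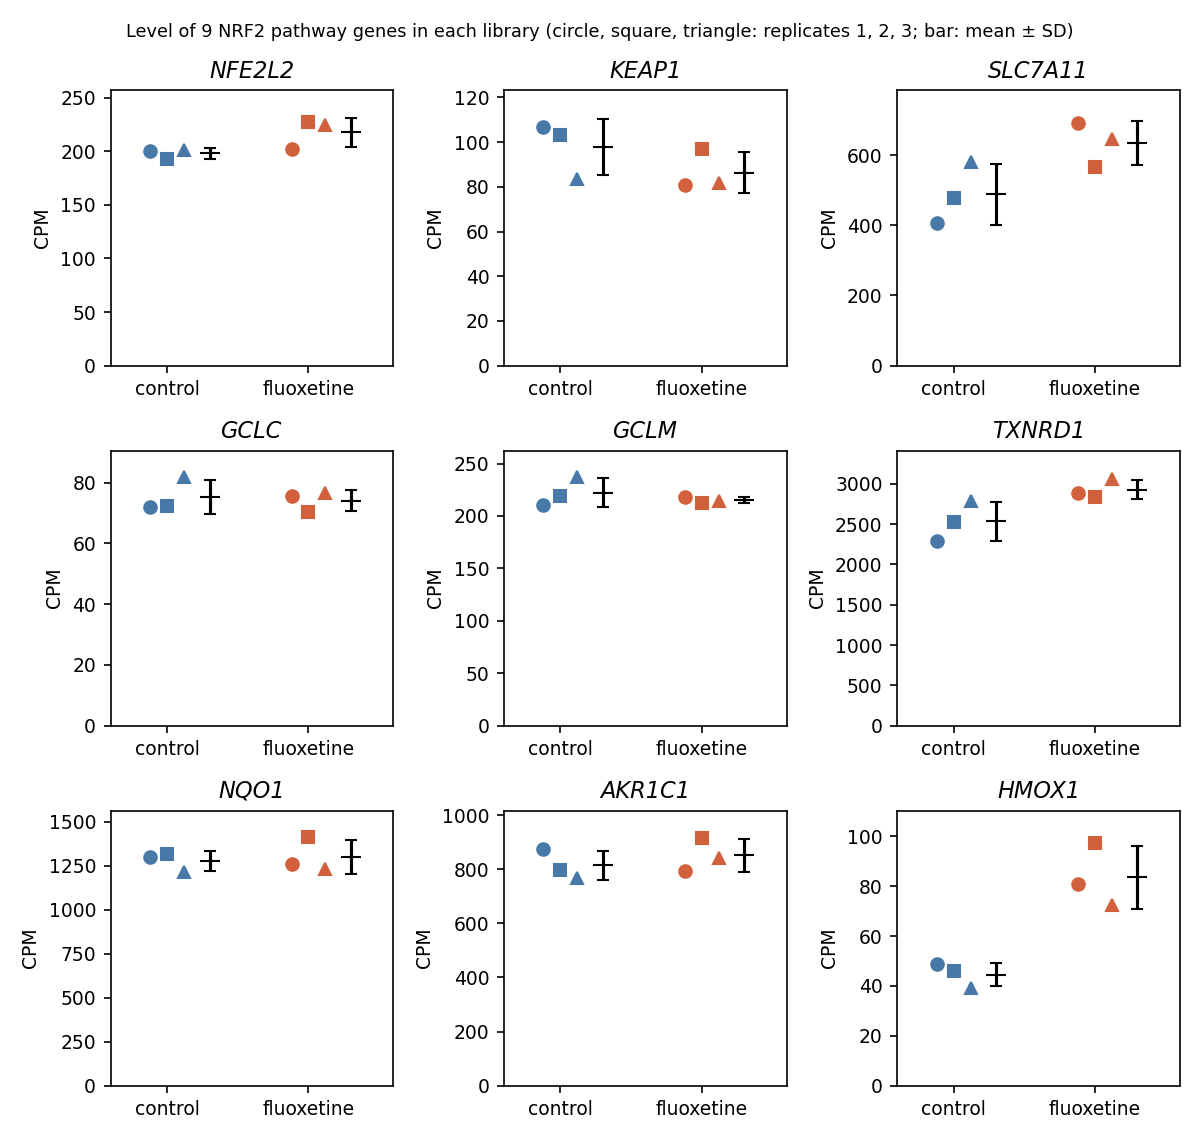
CPM of the 9 tested genes in each library, with each axis starting at 0; circles, squares and triangles are replicates 1, 2 and 3 and bars are mean ± SD. The HMOX1 libraries separate by the widest margin relative to their level (39.3 to 48.6 against 72.6 to 97.4 CPM). The groups overlap for KEAP1, SLC7A11, GCLC, GCLM, NQO1 and AKR1C1.

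Among SLC7A11, GCLC and GCLM, the glutathione genes of the set, SLC7A11 had the highest point estimate. It encodes the cystine-importing chain of the xCT antiporter. SLC7A11 (ENSG00000151012, chromosome 4, 138164097 to 138242349, minus strand) was at 406, 479 and 579 CPM in control cells and 691, 565 and 646 CPM after fluoxetine treatment. Fluoxetine replicate 2 lay below control replicate 3, and the other pairs of libraries were in the order treated above control. The log2 fold change was 0.38 (SE 0.12, 95% interval 0.11 to 0.65, adjusted p = 0.0678). The call depended on the setting. The adjusted p was 0.0390 with DESeq2, 4.21e-04 without a filter on low counts and 0.00494 without control replicate 3 (log2 fold change 0.49), and the lowest log2 fold change with a library left out was 0.23, without control replicate 1 (adjusted p = 0.259). Exons of the antisense gene SLC7A11-AS1 overlap 9.0% of its exon length. That gene had 17, 25 and 84 counts in the controls and 74, 19 and 104 counts in the treated libraries, in replicate order. Since it is not given whether counting used strand, reads of the pair cannot be told apart.

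SLC3A2 encodes the heavy chain that carries xCT to the membrane, and it did not pass the test (277 ± 45.2 and 259.8 ± 41.2 CPM; SD, n = 3; log2 fold change -0.09, adjusted p = 0.695; -0.25 and 0.111 without control replicate 3). The ratio of SLC7A11 to SLC3A2 per kilobase was 0.721, 0.847 and 1.39 in control cells and 1.45, 1.003 and 1.57 after treatment. Control replicate 3 again fell among the treated libraries, and the log2 difference of 0.48 had p = 0.2 in the exact permutation test. It was 0.75 without control replicate 3 and 0.28 without control replicate 1.

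GCLC and GCLM encode the catalytic and the modifier subunit of glutamate-cysteine ligase, the rate-limiting enzyme of glutathione synthesis. GCLC (ENSG00000001084, chromosome 6, 53497341 to 53616970, minus strand) was at 72.0, 72.2 and 81.7 CPM in control cells and 75.5, 70.2 and 76.4 CPM after treatment. GCLM (ENSG00000023909, chromosome 1, 93885205 to 93909456, minus strand) was at 210.3, 219 and 237 CPM and then at 218, 213 and 214 CPM. The groups overlapped for both. The fold change was 0.983 for GCLC (95% interval 0.866 to 1.12, adjusted p = 0.880) and 0.968 for GCLM (0.869 to 1.08, adjusted p = 0.695). In counts, without the exon lengths, the mean ratio of GCLM to GCLC was 2.95 in control cells and 2.91 after treatment. The ratio of GCLM to GCLC per kilobase was 4.71 ± 0.110 in control cells and 4.64 ± 0.183 after treatment (SD, n = 3; exact permutation p = 0.5). Over all 6 libraries it ran from 4.47 to 4.83, the narrowest range of the 5 ratios relative to its level.

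TXNRD1 returns electrons from NADPH to thioredoxin. TXNRD1 (ENSG00000198431, chromosome 12, 104215779 to 104350305, plus strand) had 2289, 2525 and 2779.6 CPM in control cells and 2879, 2837 and 3062 CPM after treatment, so each fluoxetine library was above each control. The log2 fold change was 0.21 (SE 0.08, 95% interval 0.02 to 0.39, adjusted p = 0.130). It was 0.25 with an adjusted p of 0.0372 without control replicate 3, the highest control, and 0.11 with an adjusted p of 0.512 without control replicate 1, the lowest. TXN, thioredoxin itself, overlapped between groups (694 ± 78.2 and 817 ± 100.1 CPM; SD, n = 3; log2 fold change 0.24, adjusted p = 0.168), and its log2 fold change was 0.10 without fluoxetine replicate 2, the highest library (adjusted p = 0.514). The ratio of TXNRD1 to TXN per kilobase was 0.630 ± 0.122 and 0.618 ± 0.0972 (SD, n = 3; exact permutation p = 0.9).

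SRXN1, sulfiredoxin, reduces overoxidized peroxiredoxins. SRXN1 (ENSG00000271303, chromosome 20, 646615 to 653370, minus strand) had 0, 9 and 1 counts in control cells and 2 in each fluoxetine library. In 5 of the 6 libraries this is under the 3 counts that a count of 0 allows, so no fold is given. Its exons share 85.0% of their length with AL121758.1, a protein-coding gene annotated on the same strand, which had 20 to 36 counts per library. Of the stretches of 150 bases in SRXN1 transcripts, 84.15% also occur in AL121758.1, so reads from most of the transcript cannot be assigned to 1 of the pair. The level of SRXN1 can therefore not be read from this table.

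NQO1 and AKR1C1 did not pass the test in any fit. NQO1 (ENSG00000181019, chromosome 16, 69706996 to 69726951, minus strand) was at 1299, 1319 and 1213 CPM in control cells and 1258, 1412 and 1230.5 CPM after treatment, with fluoxetine replicate 2 the highest of all 6. Its log2 fold change was 0.03 (SE 0.08, 95% interval -0.14 to 0.20, adjusted p = 0.861) and changed sign with DESeq2, RLE normalization and no filter on low counts, and without control replicate 3 or fluoxetine replicate 2. Exons of the antisense gene AC092115.2, which has no row in the deposited table, overlap 17.7% of the exon length of NQO1. AKR1C1 (ENSG00000187134, chromosome 10, 4963253 to 4983283, plus strand) was at 875, 798 and 768 CPM and then at 795, 916 and 841 CPM. Its log2 fold change was 0.06 (SE 0.08, 95% interval -0.11 to 0.24, adjusted p = 0.629) and changed sign without control replicate 3 or fluoxetine replicate 2.

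AKR1C2 is the neighbour of AKR1C1 and nearly a copy of it. The promoter windows of AKR1C1 (chr10:4963165-4963464, plus strand) and AKR1C2 (chr10:5003808-5004107, minus strand) were identical at 98.63% of 292 aligned bases, and 10.05% of the 150-base stretches in AKR1C1 transcripts occur in AKR1C2 too, so the split of reads between them is uncertain. AKR1C2 had 217, 201 and 203 CPM in control cells and 168, 188 and 172 CPM after treatment, with no overlap between the groups (log2 fold change -0.23, 95% interval -0.39 to -0.07, adjusted p = 0.0587). Among the alternatives without a replicate block, it passed the threshold with DESeq2 (0.0342), RLE normalization (0.0486), no filter (0.0253) and equal depth (0.0495), and without control replicate 3 (0.0216) or fluoxetine replicate 2 (0.0271). The ratio of AKR1C1 to AKR1C2 per kilobase was 2.98, 2.92 and 2.79 in control cells and 3.48, 3.60 and 3.60 after treatment. This is the one of the 5 ratios whose groups did not overlap. The log2 difference was 0.30 (exact permutation test, two-sided, p = 0.1, the smallest that 3 against 3 can give; 0.333 after Benjamini-Hochberg adjustment over 5 ratios), and leaving out 1 library at a time moved it only from 0.27 to 0.32.

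**Figure D4:**
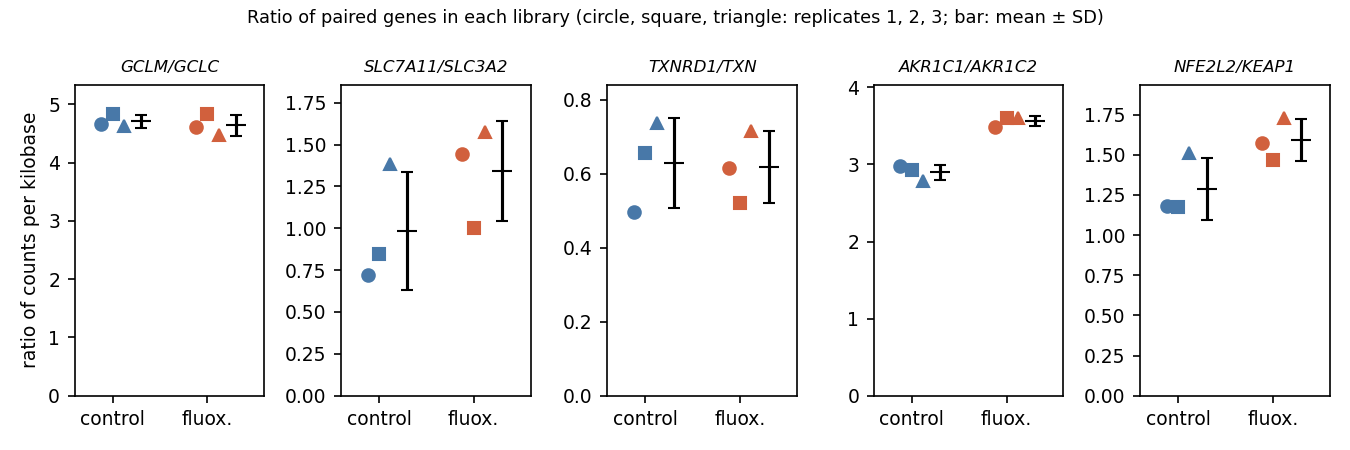
Ratio per kilobase of 5 pairs of genes in each library, with each axis starting at 0; circles, squares and triangles are replicates 1, 2 and 3 and bars are mean ± SD. The groups are apart for AKR1C1 to AKR1C2 (2.79 to 2.98 against 3.48 to 3.60) and overlap for the other 4 pairs.

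HMOX1, heme oxygenase 1, degrades heme to biliverdin, iron and carbon monoxide. HMOX1 (ENSG00000100292, chromosome 22, 35380361 to 35394214, plus strand) had 48.6, 45.8 and 39.3 CPM in control cells and 81.0, 97.4 and 72.6 CPM after treatment. Each treated library was well above each control, on 879 to 1638 counts. The fold change was 1.88 (95% interval 1.56 to 2.26), or 0.91 on the log2 scale (SE 0.12), with an adjusted p of 0.00117. It was called with every alternative test, normalization and filter and with each library left out, where the log2 fold change was lowest at 0.75 without fluoxetine replicate 2 and highest at 0.98 without fluoxetine replicate 3. No exon of another gene overlaps HMOX1 in the annotation.

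Control replicate 3 had the highest SLC7A11, GCLC, GCLM, TXNRD1 and NFE2L2 of the 3 controls and the lowest KEAP1, HMOX1, NQO1 and AKR1C1. It was also the library with the most counts. Its part in these results was measured only by leaving it out. The genes called without it, HMOX1, SLC7A11 and TXNRD1 upward and KEAP1 downward, stand against HMOX1 alone with it.

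A wider list of 129 genes around NRF2, in 7 roles, was examined in the same fit. Of these, 128 were in the table and 123 were tested. After fluoxetine treatment 17 rose, 6 fell and 100 did not pass, with a median log2 fold change of 0.02, and 2 (SQSTM1 and DDIT3) rose at least 2-fold. With RLE normalization 15 rose and 10 fell. The 23 called genes are 13.8% of the tested list upward and 4.88% downward, beside the 7.76% and 5.32% of all genes. The list was chosen with earlier results of these data known, so this difference in shares is not a test of the list. Of the 23, 8 were called with every alternative test, normalization and filter and with each library left out: SQSTM1, IDH1, ME1, SOD2, AKR1A1, ATF3 and DDIT3 upward and PGAM5 downward. The other 15 lost the call in at least 1 fit without a library, most often without control replicate 2 (14 genes) or fluoxetine replicate 1 (14 genes). Over all tested genes these fits also called fewer. Without control replicate 2, 484 rose and 435 fell, and without fluoxetine replicate 1, 409 rose and 163 fell. The main fit had 1214 and 833.

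Among 21 partners and regulators, 3 rose and 2 fell (14.3% and 9.52%, beside 7.76% and 5.32% of all tested genes). SQSTM1, the autophagy receptor p62 that binds KEAP1 and is itself an NRF2 target, rose from 601, 652 and 557 CPM to 1219.8, 1328 and 1209 CPM (log2 fold change 1.05, SE 0.08, adjusted p = 2.33e-05), although its fold change with a library left out went as low as 0.97 on the log2 scale. BACH1, the repressor that competes with NRF2 at antioxidant response elements and is known for holding HMOX1 down, rose from 26.2, 31.4 and 37.4 CPM to 48.7, 47.7 and 49.4 CPM (log2 fold change 0.62, adjusted p = 0.00955). BACH1 lost the call without control replicate 2 (adjusted p = 0.0623) or fluoxetine replicate 1 (0.0686). GSK3B, a kinase that marks NRF2 for degradation apart from KEAP1, rose by 0.39 (adjusted p = 0.0231). PGAM5, a mitochondrial phosphatase that binds KEAP1, fell by 0.51 on the log2 scale (adjusted p = 0.00206), and RBX1, the RING subunit of the CUL3 ligase, fell by 0.42 (adjusted p = 0.0399). GSK3B and RBX1 each lost the call in 4 of the 6 fits without a library, namely without control replicates 1 or 2 or fluoxetine replicates 1 or 3 (adjusted p up to 0.138 and 0.145).

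CUL3 itself did not pass the test (log2 fold change 0.03, adjusted p = 0.814). Of the small MAF partners, MAFG had 105, 107 and 97.2 CPM in control cells and 124, 124 and 114 CPM after treatment, with no overlap, at a log2 fold change of 0.23 (adjusted p = 0.0730). MAFF was at -0.08 (adjusted p = 0.799). MAFK was at -0.12 (adjusted p = 0.714), where control replicate 3 at 44.7 CPM was far below the other controls at 78.0 and 76.2, and without that library it was at -0.37 with an adjusted p of 0.0309.

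Among 33 glutathione genes, 5 rose and 2 fell (15.2% and 6.06%, beside 7.76% and 5.32% of all tested genes). GLRX, a glutaredoxin, rose by 0.44 on the log2 scale (adjusted p = 0.00688), and MGST3, a microsomal glutathione transferase, by 0.41 (adjusted p = 0.0139). ABCC1, an exporter of glutathione conjugates, rose by 0.35 (adjusted p = 0.0196). ABCC2, another such exporter (0.41, adjusted p = 0.0211), and GGT1, which splits extracellular glutathione (0.51, adjusted p = 0.0247), also rose and are named after their values were seen, to complete the count of 5. CHAC2, which degrades glutathione, fell by 0.46 (adjusted p = 0.0163), and SLC1A5, a glutamine importer, fell by 0.40 (adjusted p = 0.0194). All 7 lost the call without control replicate 2, where their adjusted p ran from 0.0504 for CHAC2 to 0.120 for ABCC2. In that fit fewer genes were called over the whole table too. Of the 6 fits without a library, GLRX kept the call in 5. MGST3, GGT1, CHAC2 and SLC1A5 each kept it in 3, and ABCC1 and ABCC2 in 2. Without control replicate 3 GGT1 was at 0.34 (adjusted p = 0.0193). CHAC1, a glutathione-degrading target of ATF4, was at 0.760 ± 0.116 and 1.45 ± 0.430 CPM (SD, n = 3; log2 fold change 0.92, adjusted p = 0.0842).

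Among 19 tested genes of the thioredoxin, peroxiredoxin and dismutase systems, 2 rose and 17 did not pass, and the median log2 fold change was -0.16. The 2 are 10.5% of the list, beside 7.76% of all tested genes upward. All treated libraries lay below all controls for 8 of the 19, against 14.4% of all tested genes, and these 8 had adjusted p-values from 0.0539 (TXNRD2, mitochondrial thioredoxin reductase) to 0.306 (SESN1, a sestrin), both named after their values were seen. SOD2, the mitochondrial superoxide dismutase, rose from 342, 339 and 328 CPM to 475, 489 and 477 CPM (log2 fold change 0.51, adjusted p = 7.73e-04). SESN3, a sestrin, rose by 0.42 (adjusted p = 0.0487), but its groups overlapped and it lost the call with limma-voom (0.0552), RLE normalization (0.0506) and library size only (0.0508), as well as without control replicates 1 or 2 or fluoxetine replicates 1 or 3 (up to 0.216), with the lowest log2 fold change, 0.27, without control replicate 1. CAT, catalase, named after its values were seen, had at most 2 counts in a library.

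Of 10 genes of NADPH supply, on which both reductase systems draw, 2 rose and 1 fell (20% and 10%, beside 7.76% and 5.32% of all tested genes). IDH1, the cytosolic isocitrate dehydrogenase, rose from 272, 267 and 282 CPM to 493, 519 and 507 CPM (log2 fold change 0.89, SE 0.07, adjusted p = 2.09e-05). ME1, malic enzyme, rose from 237, 223 and 244 CPM to 318, 344 and 331 CPM (0.50, adjusted p = 0.00155). MTHFD2, of mitochondrial folate metabolism, fell by 0.30 (adjusted p = 0.0170), a call lost without fluoxetine replicate 1 (0.0799) or 3 (0.0748). The libraries of IDH1 and ME1 were far apart between groups and close within them.

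Of 22 tested genes of quinone, carbonyl and drug metabolism, 1 rose and 1 fell. Each is 4.55% of the list, beside 7.76% upward and 5.32% downward over all tested genes. AKR1A1, aldehyde reductase, rose by 0.58 on the log2 scale (adjusted p = 0.00273). AKR1B1, aldose reductase, fell by 0.32 (adjusted p = 0.0278), a call lost without control replicate 2 or fluoxetine replicates 1 or 3 (up to 0.137). Of 8 genes of heme and iron, FTL, the ferritin light chain, rose by 0.36 (adjusted p = 0.0230), with the call lost without control replicate 2 or any 1 of the 3 fluoxetine replicates (0.0608 to 0.0927). FTL alone is 12.5% of this list, beside 7.76% of all tested genes upward. The ferritin genes have many pseudogene copies, so their counts are uncertain. Of 10 genes of ATF4 and shared stress responses, which also drive SLC7A11 and CHAC1, 3 rose: DDIT3 (1.23, adjusted p = 0.00142), ATF3 (0.94, adjusted p = 0.00157) and TRIB3 (0.48, adjusted p = 0.0443). These 3 are 30% of a list chosen with earlier results known, beside 7.76% of all tested genes upward. TRIB3 lost the call with RLE normalization (0.0582) and without control replicates 2 or 3 or fluoxetine replicates 1 or 2 (up to 0.205), with the lowest log2 fold change, 0.32, without control replicate 3. The ATF4 transcript did not pass the test (log2 fold change -0.08, adjusted p = 0.674), and these libraries hold no measure of its protein.

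**Figure D5:**
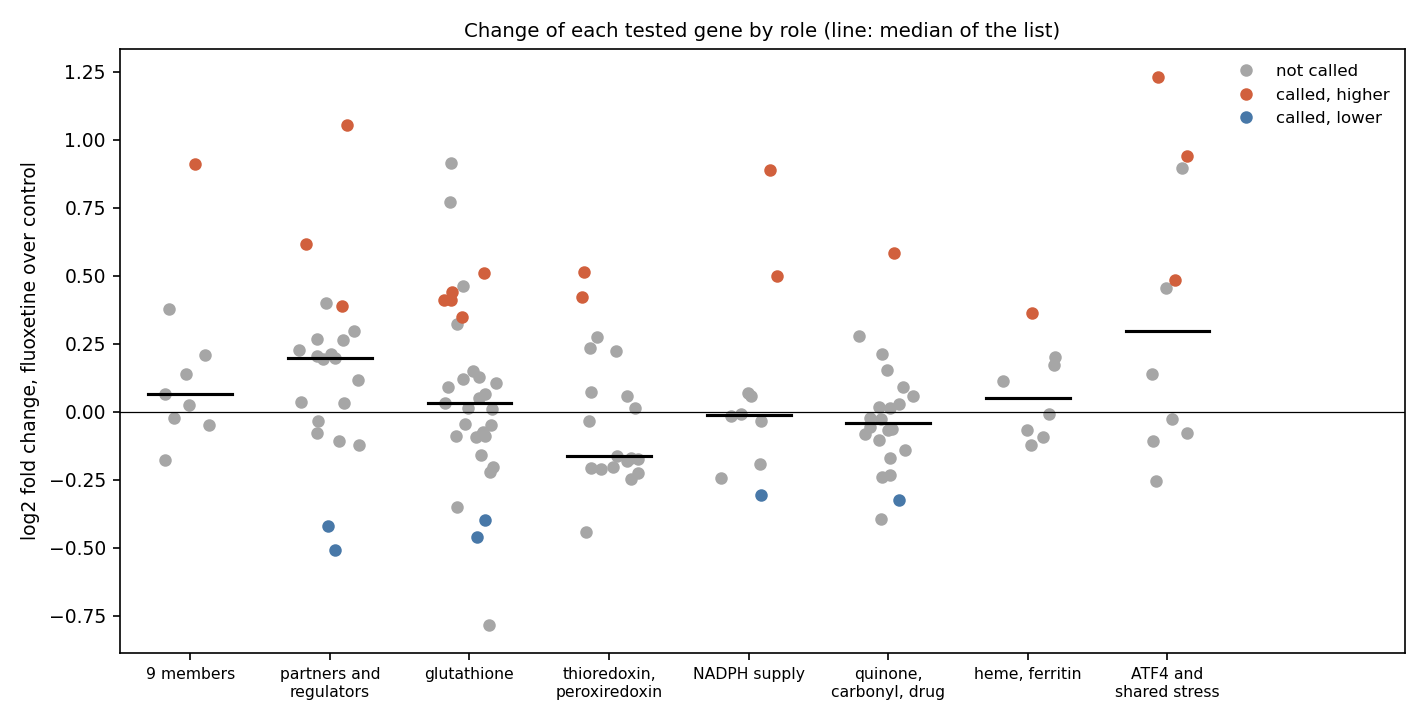
Log2 fold change of fluoxetine over control for each tested gene, by role; orange and blue points were called higher and lower at an adjusted p under 0.05, and the black line is the median of a list. HMOX1 is the one called gene of the first column, and the median of the thioredoxin column lies at -0.16 with no gene called lower.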

How the data were processed

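RNA sequencing covered 3 control and 3 fluoxetine libraries, grouped by the deposited treatment labels. The authors deposited 1 table of raw counts per gene without normalization or pooling. The submitters' processing notes name fastp 0.20.0, HISAT2 2.1.0, HTSeq 0.10.0 and DESeq2 1.18.1, and give no role or use of strand. The deposited table also holds the authors' log2 fold change and p-values of their own comparison, which were not used. Gene positions had the same start and end in GENCODE 29 for 96.81% of shared genes.

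The main test of the counts was edgeR 4.0.16 in R 4.3.3 (glmQLFit, glmQLFTest, TMM, filterByExpr, no covariate) over 15646 genes, with Benjamini-Hochberg adjustment. The depth, 16157507 to 27823667 counts, sets the precision of low genes. Alternatives were DESeq2 1.42.0, limma-voom (limma 3.58.1), RLE normalization, library size only, no filter, at least 10 counts in every library, a replicate block, equal depth and each library left out. Ratios of 5 gene pairs had exact permutation tests. The genes and lists were chosen with earlier results of these data known. Named beside the 10 genes are 11 partners and up to 3 called genes with the smallest p of each role and direction. Exceptions are marked, except marker and overlapping genes.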

Additional observations from a re-analysis of the deposited data

How the results depend on the processing

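Of the 10 genes, the number that rose was 1 with edgeR, 2 with DESeq2, with no filter on low counts and with the replicate number as a block, 0 with a minimum of 2-fold, and 1 to 3 with each library left out. The number that fell was 0, and 0 to 1 with each library left out. Among the other pathway genes, 17 rose, with 29 under the block, 2 at 2-fold or more and 7 to 20 with each library left out. There, 6 fell, with 11 by DESeq2, 10 with RLE normalization, 13 without the filter, 14 under the block, 0 at 2-fold or more and 1 to 21 with each library left out. Over all tested genes, 1214 rose and 833 fell. The block gave 2231 and 1787, a minimum of 2-fold gave 195 and 23, and leaving out each library gave 409 to 1627 and 163 to 2006. Without the filter 1516 fell. Among the fits that left out a library, the highest number that fell came without control replicate 3 and the lowest without fluoxetine replicate 1. The cause was not tested.

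The replicate numbers were not taken to pair the libraries in the main fit. Deviations of same-numbered libraries from their group means correlated at 0.0297, 0.116 and 0.392. Control replicates 2 and 3 correlated best with the fluoxetine library of the same number, and control replicate 1 with fluoxetine replicate 2 (0.32). Whether the libraries are paired cannot be told from these values, and the block changed calls. Of the named genes not called without the block, 4 were called under it: SLC7A11 (adjusted p = 7.69e-05), AKR1C2 (0.0260), TXN (0.0274) and MAFG (0.0397).

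Directions near 0 turned. NQO1 was at -0.0041 with DESeq2, -0.00034 with RLE normalization and -0.0097 without the filter, and at -0.071 to 0.042 with each library left out. Left-out libraries also moved GCLC (-0.094 to 0.0055) and AKR1C1 (-0.027 to 0.085) across 0, and MAFF (-0.21 to 0.043), CUL3 (-0.035 to 0.038) and AKR1B10 (-0.059 to 0.032), an aldo-keto reductase named after its values were seen. Without the filter CUL3 was at -0.0049 and AKR1B10 at -0.0072, and with DESeq2 AKR1B10 was at -0.0011. The log2 ratio difference ran from -0.053 to 0.0034 for GCLM to GCLC and from -0.18 to 0.10 for TXNRD1 to TXN with each library left out. HMOX1 kept its direction and its call in all of these fits. Depth limits CAT, whose counts are near the limit that a count of 0 allows. SRXN1 also had few counts, but its level cannot be read because most of its transcript is shared with AL121758.1.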
